A study of Mus musculus with 6 samples.

Results

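The genes described here are Lin28a, Lin28b, Hmga1, Hmga2, Igf2bp1, Igf2bp2, Igf2bp3, Myc and Mycn, chosen by name as genes of early progenitors. They were chosen with earlier results of these data known. They were read from every Affymetrix probe set with 1 of these symbols alone in the platform annotation. Of the 9 genes, 7 had such a probe set, and they had 21 probe sets of 45037 on the array. The expression of Hmga1 and Igf2bp2 was not analysed here. The samples were optic fissures, the ventral groove of the optic cup that closes during eye development, cut by laser microdissection from C57BL/6J mouse embryos at E11.5. The 3 FGFR mutant samples carried Six3Cre with Fgfr1fx/fx and Fgfr2fx/fx, so that Cre, driven in the early eye field and forebrain, could recombine floxed alleles of both receptors. The 3 control samples lacked Six3Cre and carried the same floxed alleles of both receptors. Each sample was 1 array, and the title numbers 8711, 9216 and 9266 each occur once in either group. Nothing in the labels states how many embryos or litters stand behind a sample, and any p-value here covers only the variation among these 6 arrays, part of which may be technical.

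LIN28A and LIN28B are RNA-binding proteins of embryonic cells that block maturation of the let-7 family of microRNAs. In turn let-7 represses the mRNAs of LIN28 proteins, of the chromatin protein HMGA2, of the mRNA-binding IGF2BP proteins and of MYC and MYCN, transcription factors of growth and proliferation. The products of these genes are abundant in early neural and retinal progenitors and decline as development proceeds. In worms the LIN28 and let-7 homologues were found as switches of developmental timing, and in the mouse retina LIN28 has been tied to the order in which progenitors make cell types. The array measures mRNA and not mature let-7. Of the mature let-7 sequences, 3 are printed to show the seed through which they recognise these mRNAs, 5′ to 3′, from the RefSeq table of GRCm38.p6, with the seed (bases 2 to 8) in capitals.
mmu-let-7a-5p: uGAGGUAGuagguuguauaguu
mmu-let-7g-5p: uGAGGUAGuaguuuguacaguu
mmu-miR-98-5p: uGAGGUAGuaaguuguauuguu
The seed is the same in all 3, and let-7g and miR-98 each carry the letter of let-7a at 20 of 22 positions.

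The arrays differed in quality. The mutant 8711 array had a ratio of 3′ to 5′ signal of 93.6 for the Gapdh control probe sets, against 4.26 to 15.0 in the other 5 arrays, and a median intensity of 18.1, against 28.7 to 34.6 in the others. Results are therefore also given without it. The brightest probe set of Fgfr1 averaged 88.5 ± 45.9 in FGFR mutants and 192 ± 88.2 in controls, and that of Fgfr2 1038 ± 243 in FGFR mutants and 380 ± 83.7 in controls (SD, n = 3 each). Where these probes lie relative to the floxed parts was not analysed here, so they do not check the genotypes. Of 13 neural retina progenitor markers, such as Six6 and Rax, the summed intensity was 6491 to 7921 in FGFR mutants against 10222 to 12262 in controls. Of the 13, 11 had lower means in the FGFR mutants, beside 46.4% of all genes tested with a log2 difference below 0. Pax6, the brightest of them, was higher without overlap, with means of 2228 in FGFR mutants and 1565 in controls, while its dimmer probe sets went both ways. Lhx2 (858 in FGFR mutants, 856 in controls) and Rorb (446 and 458) had nearly equal means. For 16 pigment epithelium markers the sum was 25521 to 41740 in FGFR mutants against 16509 to 19003 in controls. For 18 periocular mesenchyme markers it was 3597 to 4449 in FGFR mutants against 1552 to 3080 in controls, and for 14 macrophage markers 2987 to 3776 in FGFR mutants against 1914 to 2762 in controls. Among those tested, 14 of 15 pigment epithelium, 16 of 16 mesenchyme and 10 of 14 macrophage markers were higher in the FGFR mutants. Over all genes tested, 53.6% were higher. The sums of these 3 lists and of the retina progenitor markers did not overlap between the groups. Those of 10 endothelial (285 to 591 in FGFR mutants, 397 to 752 in controls), 7 erythroid (17072 to 18370 in FGFR mutants, 13335 to 17828 in controls) and 12 lens markers (1579 to 3701 in FGFR mutants, 2567 to 3678 in controls) overlapped. None of the markers was at 0 in any array. Their part in the results on the timing genes was not tested, and in such tissue samples fewer cells of a type and less RNA per cell cannot be told apart.

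Most of the timing genes had lower values in the FGFR mutants, by differences that no single gene carried past the test. Intensities are linear and already scaled by the authors, and log2 differences are mutant minus control on log2(intensity + 1.7). A total of 19 of the 21 probe sets, for 6 genes, passed the filter on dim values (a mean log2 value of at least 4.07, about 15.1 in intensity). All 19 tested probe sets were lower on average in the FGFR mutants, where 54.5% of the 27022 probe sets tested across the array were. Probe sets of 1 gene share its transcript, and several of Igf2bp3 and Hmga2 share the sequence they were designed from, so they are not separate observations. Because the genes were chosen with earlier results of these data known, the shares over the whole array are a description and not a test. Counted by gene and by the brightest probe set, 6 of 6 genes were lower and 0 higher, against 46.4% and 53.6% of 12282 genes tested. The groups did not overlap in 2 of the 6, both lower, against 5.43% of all genes lower and 9.44% higher without overlap. The median log2 difference of the 6 genes was -0.65, against 0.03 over all genes tested, and -0.47 against 0.02 without mutant 8711, when 6 of 6 were again lower (47.2% of all genes lower, 52.8% higher). The 2 probe sets under the filter, 1 of Lin28b and 1 of Mycn, had higher values in the FGFR mutants at dim intensities.

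By limma with Benjamini-Hochberg adjustment over all 27022 probe sets, 0 of the 19 passed an adjusted p of 0.05, and 0% of all probe sets did. The lowest adjusted p among the 19 was 0.709, for a dim Hmga2 probe set. Before adjustment, 3 of the 19 reached p under 0.05 with lower values and 0 with higher values, against 2.55% and 3.02% of all probe sets. The groups did not overlap, with the FGFR mutants lower, in 7 of the 19, against 6.39% of all probe sets. No tested member probe set was higher without overlap, against 7.08%. Without mutant 8711, 18 of the 19 were lower (46.1% of all), 10 did not overlap (11% of all), 7 were lower at an unadjusted p under 0.05 (3.7% of all) and 0 passed adjustment (0.0037% of all).

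**Figure D1:**
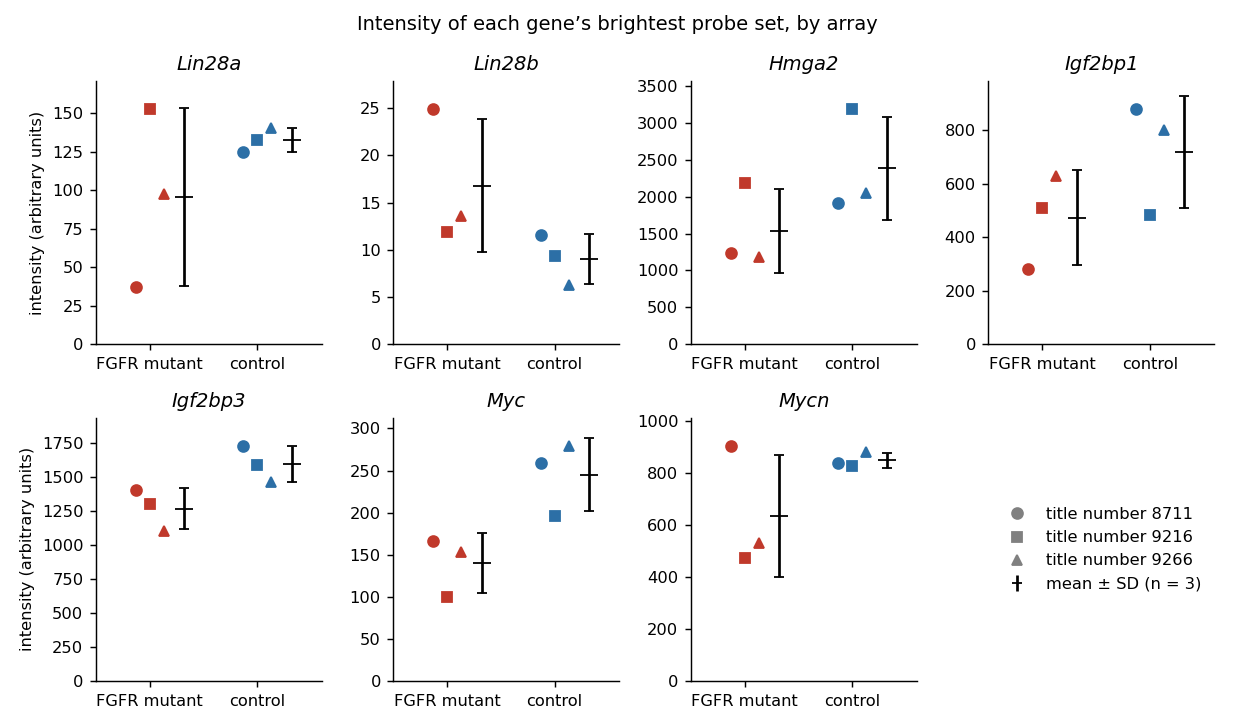
Linear intensity of each gene's brightest probe set (Lin28b has 1) in the 3 FGFR mutant arrays on the left of each panel and the 3 control arrays on the right, with marker shapes for title numbers and black bars for the mean ± SD. Myc and Igf2bp3 do not overlap between the groups, and Lin28a is low in 1 mutant array, at 36.9.

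The LIN28 genes were measured at low intensity. The brighter of 2 Lin28a probe sets, 1437752_at, had 36.9, 152.6 and 97.4 in FGFR mutants 8711, 9216 and 9266, against 124.8, 132.9 and 140.1 in controls 8711, 9216 and 9266. The mutant 9216 array was above every control and the other mutant arrays below them, so the groups overlapped. The log2 difference was -0.68 (SE 0.50, limma adjusted p = 0.852), and -0.12 without mutant 8711. The second probe set, 1421749_at, had 18.4, 41.7 and 58.8 in FGFR mutants, against 36.8, 41.7 and 57.8 in controls. Its difference was -0.30 (SE 0.47) with all arrays and 0.15 without mutant 8711, so the direction depended on that array. Lin28b, the second LIN28 gene, which acts on let-7 precursors in the nucleus, had 24.9, 11.9 and 13.6 in FGFR mutants, against 11.6, 9.3 and 6.3 in controls. Its values did not overlap and were higher in the FGFR mutants, with a log2 difference of 0.75, but they lay near or under the filter level and were not tested.

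Hmga2, which encodes an AT-hook protein that binds the minor groove of DNA and supports self-renewal of young neural stem cells in the mouse, had lower means in the FGFR mutants with all 4 probe sets. The brightest, 1422851_at, had 1239, 2189 and 1176 in FGFR mutants 8711, 9216 and 9266, against 1917, 3186 and 2056 in controls 8711, 9216 and 9266. Mutant 9216 lay between the controls, and the other mutant arrays lay below all of them. The means were 1535 ± 567 in FGFR mutants and 2386 ± 696 in controls (SD, n = 3 each), with a log2 difference of -0.66 (SE 0.31, limma adjusted p = 0.852). Control 9216 was the highest control array here, and without it the difference was -0.43. Without mutant 9216 it was -0.94.

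The next probe set, 1450780_s_at, had 516.6, 1008 and 763.3 in FGFR mutants, against 1106, 1655 and 1082 in controls, without overlap. Its difference was -0.77 (SE 0.30), and -0.52 without mutant 8711. The dim 1446196_at had 9.5, 31.9 and 28.1 in FGFR mutants, against 69.0, 78.5 and 53.1 in controls. Every mutant array was below every control, with a difference of -1.60 (SE 0.49, limma adjusted p = 0.709), and -1.10 without mutant 8711. The fourth, 1450781_at, had 4.6 in mutant 8711, against 390.6 and 367.2 in the other mutant arrays and 278.9 to 767.2 in controls. Its difference of -2.25 (SE 1.57) was -0.28 without that array. In 3 of the 4 Hmga2 probe sets the lowest of the 6 arrays was mutant 8711.

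IGF2BP1, a protein that binds coding and untranslated parts of mRNAs and is best known for carrying beta-actin mRNA, was represented by 4 probe sets. The brightest, 1455223_at, had 281.1, 511.1 and 629.1 in FGFR mutants, against 878.7, 481.8 and 799.4 in controls. Control 9216 lay below mutant arrays 9216 and 9266, so the groups overlapped. The means were 474 ± 177 in FGFR mutants and 720 ± 210 in controls (SD, n = 3 each), with a log2 difference of -0.63 (SE 0.37, limma adjusted p = 0.852). All 4 probe sets had their lowest value in mutant 8711, as did 38.3% of all probe sets tested. Their differences ran from -0.81 to -0.51 with all arrays and from -0.41 to -0.11 without mutant 8711.

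IGF2BP3, an embryonic paralogue that binds among others the mRNA of the growth factor IGF2, had 6 probe sets, all with lower means in the FGFR mutants. The brightest, 1422610_s_at, had 1404, 1300 and 1101 in FGFR mutants 8711, 9216 and 9266, against 1730, 1593 and 1466 in controls 8711, 9216 and 9266. Each mutant array lay below each control. The means were 1268 ± 154 in FGFR mutants and 1596 ± 132 in controls (SD, n = 3 each), with a small log2 difference of -0.34 (SE 0.17, limma adjusted p = 0.852) that ran from -0.41 to -0.24 with 1 array left out.

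In 2 other Igf2bp3 probe sets, mutant 8711 went against the remaining mutant arrays. Probe set 1422611_s_at had 1232, 663.9 and 423.1 in FGFR mutants, against 915.9, 810.9 and 882.4 in controls. Probe set 1450687_at had 781.0, 310.5 and 348.8 in FGFR mutants, against 543.6, 434.1 and 555.3 in controls. In both, mutant 8711 was the highest of the 6 arrays and the other mutant arrays were below all controls. Their differences were -0.31 and -0.21 with all arrays, and -0.71 and -0.62 without mutant 8711. In 5 of the 6 probe sets mutant 8711 was the highest mutant array. The dim 1453957_a_at had 12.9, 21.4 and 14.7 in FGFR mutants, against 25.6, 26.0 and 25.7 in controls, without overlap, a difference of -0.64 (SE 0.33). Without mutant 8711, the differences of the 6 ran from -0.80 to -0.41. By the manufacturer's naming, probe sets ending in _s_at or _x_at can also bind related transcripts, so a share of signal from another gene in 3 of the 6 cannot be told apart. The same limit applies to Hmga2 1450780_s_at and Igf2bp1 1459825_x_at.

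**Figure D2:**
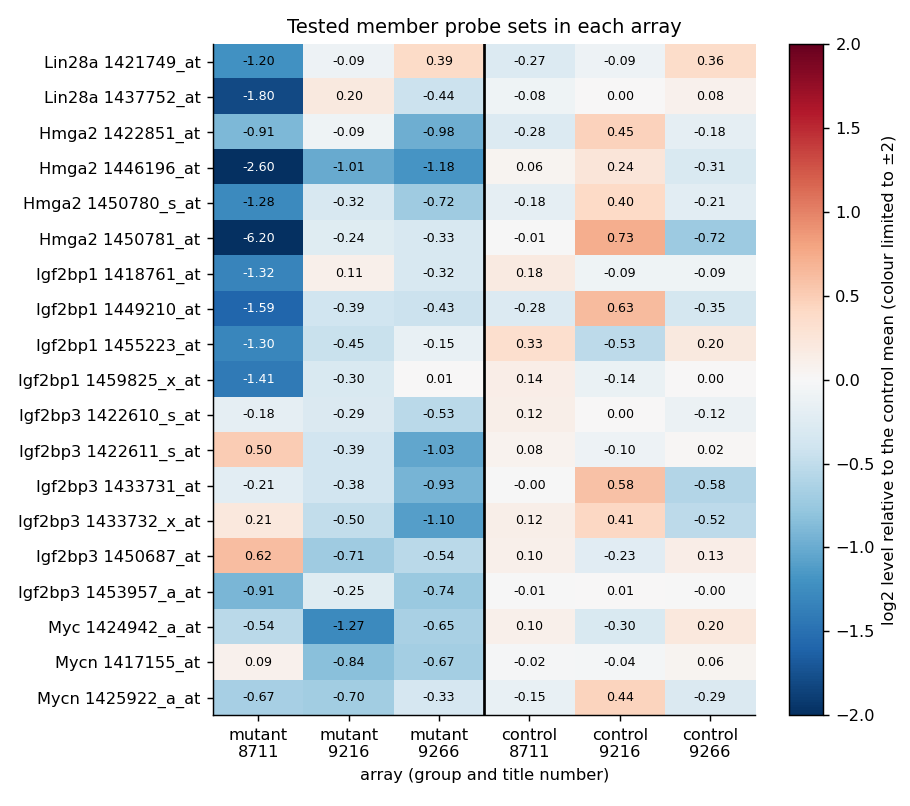
Log2 level of each tested probe set in each array relative to its mean in the 3 controls, with the FGFR mutant arrays left of the line and the control arrays right of it. Igf2bp1, Hmga2 and Lin28a are lowest in the mutant 8711 column except in Hmga2 1422851_at, while Igf2bp3 1422611_s_at and 1450687_at are above the controls there.

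Myc, which drives growth and ribosome synthesis, had 1 probe set, 1424942_a_at. It had 166.5, 99.4 and 153.4 in FGFR mutants 8711, 9216 and 9266, against 259.1, 196.0 and 279.2 in controls 8711, 9216 and 9266. All 3 mutant arrays were below all 3 controls. The means were 140 ± 35.6 in FGFR mutants and 245 ± 43.4 in controls (SD, n = 3 each), with a log2 difference of -0.82 (SE 0.29, limma adjusted p = 0.836). With 1 array left out the difference ran from -0.97 to -0.59, and it was -0.96 without mutant 8711. Of the 6 genes Myc had the smallest limma p by the brightest probe set, 0.0258 before adjustment.

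Mycn, the MYC family member that sustains proliferation of neural and retinal progenitors, was steady across the controls. Its brightest probe set, 1417155_at, had 902.6, 471.7 and 530.0 in FGFR mutants 8711, 9216 and 9266, against 835.5, 824.8 and 879.9 in controls 8711, 9216 and 9266. Mutant 8711 was above all controls, and the other mutant arrays were below all controls. The log2 difference was -0.47 (SE 0.27, limma adjusted p = 0.852) with all arrays and -0.76 (SE 0.18, limma adjusted p = 0.243) without mutant 8711. The dim probe set 1425922_a_at had 17.1, 16.7 and 22.0 in FGFR mutants, against 25.2, 38.9 and 22.7 in controls, a difference of -0.57 (SE 0.35). The remaining 1425923_at was under the filter, with 22.1, 18.9 and 6.7 in FGFR mutants, against 2.4, 12.7 and 3.2 in controls, and had a difference of 1.28 in the other direction.

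**Figure D3:**
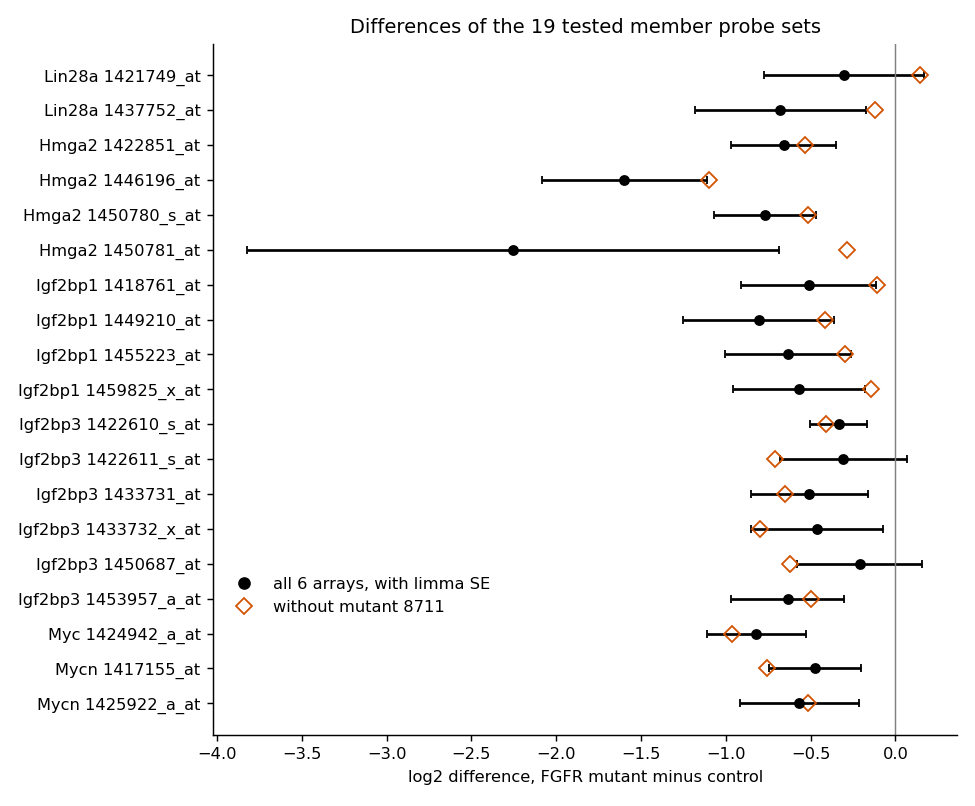
Log2 difference (FGFR mutant minus control) of the 19 tested probe sets, with all 6 arrays (black, with limma's SE) and without mutant 8711 (orange diamonds). Without that array the differences of Lin28a and Igf2bp1 lie nearer 0, while those of Myc, Mycn 1417155_at and 5 of the 6 Igf2bp3 probe sets lie farther from it.

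By likeness of their log2 values over the 6 arrays, centred on the control mean, the genes nearest to Myc were Cep152, Frzb and Shroom3, with root mean square differences of 0.10, 0.15 and 0.15. Cep152, a centriole protein gene, had 104.3, 55.1 and 80.5 in FGFR mutants, against 136.2, 119.0 and 168.4 in controls. The genes nearest to Hmga2 were Lrrc8c, Ppat and A830082K12Rik, with 0.13, 0.14 and 0.14. Ppat, which encodes the first enzyme of purine synthesis, had 270.5, 350.9 and 209.0 in FGFR mutants, against 354.1, 549.9 and 359.8 in controls. These are the nearest of 12282 genes over 6 arrays that also share their quality differences.

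Promoters of the group, from 250 bases before to 50 after the annotated start, were searched for 3 short motifs. The E-box CACGTG, which MYC and other factors bind and which reads the same on both strands, occurred in the windows of Igf2bp3 and Lin28b, which is 2 of the 7 genes with an entry and 7.15% of 32851 promoters. The Igf2bp3 window held it 2 times. The 7 include Hmga1 and Igf2bp2, for which no expression is given, while Igf2bp1 and Myc had no entry. The GC box GGGCGG, searched on both strands, occurred in 5 of the 7 and in 35.7% of all, and the ETS letters CCGGAAG in 0 of 7 and 8.86% of all. Of the 7 genes, none had both an E-box and a GC box in its window. The windows of Igf2bp3 (GRCm38.p6, chr6:49214905-49215204, minus strand) and Hmga2 (chr10:120476420-120476719, minus strand) are printed 5′ to 3′ to show a promoter with and one without the E-box, among genes with lower values in the FGFR mutants. Capitals mark E-boxes in Igf2bp3 and the GC box in Hmga2, which lies there on the other strand.
Igf2bp3: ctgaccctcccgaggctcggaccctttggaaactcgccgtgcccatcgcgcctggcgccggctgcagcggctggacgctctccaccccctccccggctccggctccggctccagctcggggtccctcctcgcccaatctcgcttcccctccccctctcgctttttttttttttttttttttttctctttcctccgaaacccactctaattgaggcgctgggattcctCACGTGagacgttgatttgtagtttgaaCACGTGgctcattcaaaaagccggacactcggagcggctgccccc
Hmga2: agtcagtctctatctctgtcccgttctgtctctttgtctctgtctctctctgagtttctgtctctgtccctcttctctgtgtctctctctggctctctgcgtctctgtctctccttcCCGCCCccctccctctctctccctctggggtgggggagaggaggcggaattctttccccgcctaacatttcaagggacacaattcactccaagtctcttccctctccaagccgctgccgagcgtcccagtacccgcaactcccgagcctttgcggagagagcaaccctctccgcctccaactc
A match is a description of letters and was not tested as a binding site.

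Genes that let-7 acts on or that process it were read from lists of known members. Of 20 genes of let-7 and microRNA processing tested, 13 had lower and 7 higher values in the FGFR mutants, with a median log2 difference of -0.11, beside 46.4% lower and a median of 0.03 over all genes tested. At an unadjusted p under 0.05, 1 was lower (2.52% of all genes) and 0 higher (4.4%). That gene was Trim71, the let-7 target known in worms as lin-41, which encodes an RNA-binding ubiquitin ligase of early embryos. It had 6.5, 90.3 and 45.3 in FGFR mutants 8711, 9216 and 9266, against 190.1, 219.9 and 113.7 in controls 8711, 9216 and 9266. The groups did not overlap, and the difference of -2.37 (SE 0.87, limma adjusted p = 0.852) was -1.37 without mutant 8711. Its second probe set had -1.88. Tnrc6b, a partner of Argonaute proteins, had -0.43, and Khsrp, which promotes let-7 maturation, -0.33, both without overlap between the groups. Tut7 was higher without overlap, at 0.31, while its second probe set had -0.67. Of the 20 genes, 3 were lower and 1 higher without overlap (5.43% and 9.44% of all genes). Xpo5, the exporter of microRNA precursors, had -0.66 with overlapping groups.

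Of 21 other let-7 targets tested, 13 were lower and 8 higher, with a median of -0.08. An unadjusted p under 0.05 was reached by 4, all lower (2.52% of all genes lower, 4.4% higher). They were Trim71, the cyclin genes Ccnd1 and Ccnd2 and the kinase gene Cdk6. The products of the last 3 act together at the G1 phase. Ccnd1 had 619.2, 293.7 and 409.2 in FGFR mutants, against 1368, 707.1 and 1962 in controls, a log2 difference of -1.55 (SE 0.44, limma adjusted p = 0.667). Ccnd2 had 1430, 1261 and 1374 in FGFR mutants, against 2632, 2482 and 3255 in controls, a log2 difference of -1.03 (SE 0.16, limma adjusted p = 0.356). Cdk6 had 290.7, 357.6 and 397.2 in FGFR mutants, against 524.9, 450.3 and 566.3 in controls, a difference of -0.56 (SE 0.21). Nr6a1, an orphan nuclear receptor gene of the early embryo and a let-7 target, went the other way without overlap, with 76.5, 71.9 and 106.1 in FGFR mutants against 52.6, 36.9 and 62.9 in controls, a difference of 0.73. The let-7 targets thus did not go one way. Mir99ahg, from whose locus let-7c is made and which was added after its values were seen, had differences of -0.23 and 0.33 in its 2 probe sets, with overlapping groups. The first of these had 37.9, 307.6 and 307.7 in FGFR mutants, against 193.5, 186.6 and 164.4 in controls. Without mutant 8711 its difference was 0.76, with both remaining mutant arrays above all controls, and that of the other probe set was 0.015.

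Of 29 known MYC targets tested, 28 were lower in the FGFR mutants and 1 higher, with Npm1, a nucleolar chaperone gene, the exception at 0.04. The median log2 difference was -0.27, beside 46.4% and 0.03 over all genes tested. The count was also 28 of 29 without mutant 8711 (Shmt2 the exception), with a median of -0.35. With 1 array left out the median ran from -0.35 to -0.21. Some of the 28 lay near 0 and turned higher without control 9266, so the count depended on single arrays. Among these, Shmt2 and Gadd45a went from -0.01 each to 0.02 and 0.33. Nop56, Cdk4, Nme1, Nme2 and Tert also turned, to 0.055, 0.011, 0.13, 0.038 and 0.083. Before adjustment 3 reached p under 0.05, all lower (2.52% of all genes lower, 4.4% higher), and 0 passed adjustment. Fbl, the methyltransferase of ribosomal RNA, had 1148, 1102 and 1120 in FGFR mutants, against 1252, 1692 and 1653 in controls, a difference of -0.43 (SE 0.18). Nolc1, a nucleolar protein gene, had 422.1, 432.1 and 384.8 in FGFR mutants, against 513.9, 545.6 and 560.5 in controls, a difference of -0.39 (SE 0.17). Neither overlapped. Cad, for pyrimidine synthesis, had -0.84 (SE 0.33) and Eif4a1, a helicase of translation start, -0.56 (SE 0.22), both with overlapping groups. Cdkn1a, Ndrg1 and Gadd45a, which MYC is known to repress, are also in the list and had -0.41, -0.60 and -0.01. All 3 had overlapping groups. Without mutant 8711 Cdkn1a had -0.02 and Gadd45a -0.41, and without mutant 9266 Gadd45a had 0.46. The values of Cdkn1a and Gadd45a thus depended on single arrays. Ndrg1 was lower throughout, from -0.83 to -0.43 with 1 array left out.

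Of 18 partners and antagonists of MYC tested, 13 were lower and 5 higher, with a median of -0.20, and -0.06 without mutant 8711. Aurka, the mitotic kinase that stabilises MYCN, had 231.4, 369.5 and 310.4 in FGFR mutants, against 465.3, 423.9 and 431.6 in controls, which gave -0.56 (SE 0.23). No other gene of the list reached p under 0.05 before adjustment (2.52% of all genes lower, 4.4% higher). Max, the dimer partner of MYC proteins, was dim, with 18.9, 10.6 and 9.4 in FGFR mutants against 45.4, 8.2 and 50.2 in controls. Its difference was -1.04 (SE 0.69) with overlapping groups. Mga, a repressor that also pairs with MAX, had 0.35 in its brightest probe set and -0.79 and -2.14 in dimmer ones, so its probe sets disagreed. Linear means behind the -2.14 were 157.3 in FGFR mutants and 222.9 in controls, with a limma p of 0.26 before adjustment. Mxd3 had -0.39 without overlap.

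Transcripts and partners of IGF2BP proteins went both ways. Of 13 tested, 10 were lower and 3 higher with all arrays (median -0.24), and 6 lower and 7 higher without mutant 8711 (median 0.06). Before adjustment 2 reached p under 0.05, both higher (4.4% of all genes higher, 2.52% lower). Igf1, a growth factor gene, had 379.7, 449.1 and 442.0 in FGFR mutants, against 204.9, 131.9 and 359.9 in controls, a difference of 0.98 (SE 0.37). Cd44, the hyaluronan receptor gene, had 32.1, 55.6 and 48.0 in FGFR mutants, against 24.9, 18.9 and 28.2 in controls, a difference of 0.85 (SE 0.35). Both were higher in all 3 mutant arrays than in any control. Laptm4b had 0.42 without overlap and Ybx1, an RNA-binding partner, -0.39 with overlap. Igf2 itself ranged from 411.5 to 2330 in FGFR mutants and from 1035 to 2032 in controls, with a difference of -0.58 (SE 0.62), or 0.06 without mutant 8711.

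Other high mobility group genes had small differences. Of 7 tested, 6 were lower and 1 higher, with a median log2 difference of -0.23. Of the 7, 0 had an unadjusted p under 0.05 (2.52% of all genes lower, 4.4% higher). The groups were apart in 0 of them (5.43% of all genes lower, 9.44% higher). Hmgb3 had -0.33, Hmgb2 -0.34, Hmgn5 -0.23 and Hmgn3 0.23, all with overlapping groups. The difference between Hmga2 and these genes was not tested.

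The list of temporal factors of retinal and neural progenitors did not go one way. It mixes factors of early and later progenitors. It also holds Fgf15, Hes1 and Lhx2, which are general retina progenitor markers, so it does not stand for late factors alone. Of 13 tested, 10 were lower and 3 higher (median -0.06), and 6 were lower and 7 higher without mutant 8711 (median 0.0038). Before adjustment 4 reached p under 0.05, of which 3 were lower (2.52% of all genes lower, 4.4% higher). Foxn4, which gives progenitors the competence for amacrine and horizontal cells, had 19.1, 33.2 and 34.3 in FGFR mutants, against 43.0, 67.5 and 92.8 in controls, a difference of -1.16 (SE 0.41). Zfhx4, a zinc finger homeobox gene, had 330.8, 344.9 and 291.8 in FGFR mutants, against 165.8, 164.0 and 235.9 in controls, a difference of 0.79 (SE 0.23). Neither overlapped. Hes1, a Notch target, had -0.81 with overlapping groups, and Fgf15 -1.74 without overlap, and both are among the general progenitor markers.

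**Figure D4:**
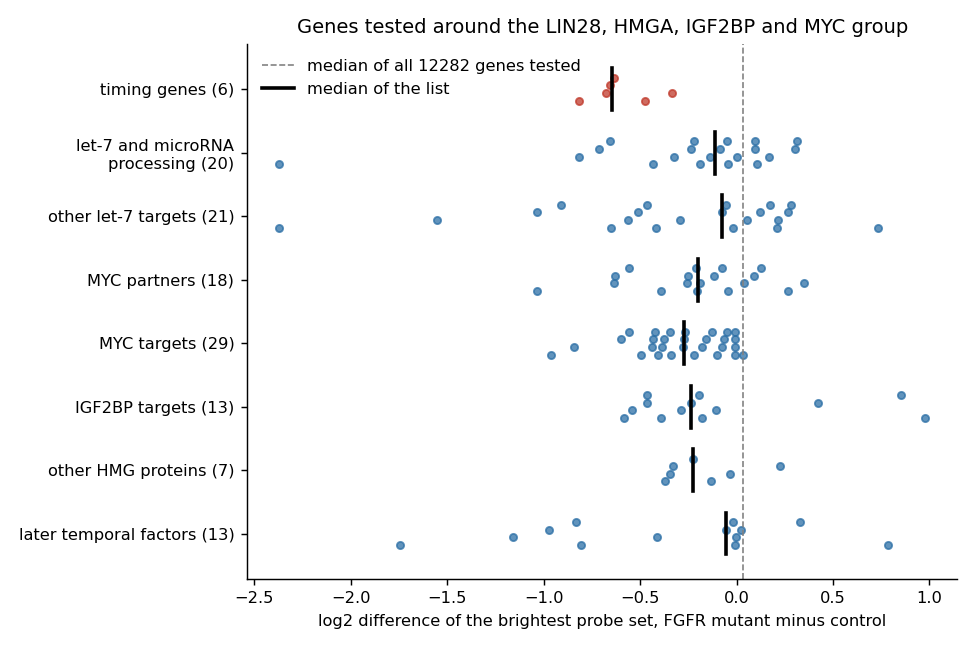
Log2 difference (FGFR mutant minus control) of the brightest probe set of each tested gene, 1 point per gene, with the number tested in brackets, black bars for the list medians and a dashed line for the median of all 12282 genes. The 6 timing genes have a median of -0.65, and 28 of 29 MYC targets lie below 0, some of them close to it. The list labelled later temporal factors also holds early ones.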

How the data were processed

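Gene expression in 6 mouse optic fissure samples was read on Affymetrix arrays. Trizol RNA was used for biotin labelling, per the labels' protocols. MAS5 is named in the submitters' processing notes, and its version is not given in the sources used here. In the authors' deposited table each probe set has 1 linear intensity per array, and the mean after trimming 2% at either end is 150 on all 6. No further normalization was applied. With 3 arrays a group, precision rests on the array number. Detection calls were not used here.

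Of 45101 probe sets, 64 manufacturer controls were left out. Of the other 45037, 34945 had 1 symbol, 932 several and 9160 none, by the platform annotation, and gene identifiers of 34741 matched the reference table. Values were transformed as log2(value + 1.7), where 1.7 is a low percentile (10) of the table, so differences of dim genes are understated. Probe sets with a mean log2 value under the 40th percentile were left out, which left 27022 probe sets covering 12282 genes, each gene being read from its brightest one. Groups were compared with limma 3.58.1 (lmFit, eBayes with trend and robust, statmod 1.5.0) in R 4.3.3, with Benjamini-Hochberg adjustment over all tested probe sets and a threshold of 0.05. Plots used Python 3.11.15 and matplotlib 3.10.9. The fit was tested on simulated data, in which few of the changes made at this array number reached the adjusted threshold, so an adjusted count of 0 does not show that values did not differ.

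The 9 genes and the gene lists were chosen with earlier results of these data known. Named genes were all members, the 4 of each companion list with the smallest limma p, and, for the 2 members with the smallest p, the 3 genes nearest in profile. Genes outside it, chosen after their values were seen, were Mir99ahg, Igf2, Nr6a1, Npm1, Shmt2, Cdkn1a, Ndrg1, Gadd45a, Nop56, Cdk4, Nme1, Nme2, Tert and Tut7. Of the marker lists, Six6 and Rax are named as examples, Pax6, Lhx2 and Rorb as exceptions, and summed intensities are given. Trim71 is in both let-7 lists, and Fgf15, Hes1, Lhx2 and Ccnd1 are also retina progenitor markers. Title numbers were not treated as pairs: deviations from the group means correlated at 0.05, 0.48 and -0.11 within 8711, 9216 and 9266. Alternatives changed the added value, the normalization, the filter, the variance model, the threshold or the rule for a gene's probe sets, blocked on the title number, weighted the arrays, or left arrays out.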

Additional observations from a re-analysis of the deposited data

How the results depend on the processing

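Adjusted calls among the timing genes were 0 under every setting run, with a lowest adjusted p of 0.0681 (Myc, limma with array weights, where mutant 8711 had a weight of 0.151 and control 8711 one of 5.98, against 0.625 to 1.59 for the other 4 arrays). Over the whole array the count called by limma was 0, against 184 with array weights (100 higher, 84 lower), 1 without both 8711 arrays and 0 to 1 with 1 array left out, the 1 without mutant 8711. The median log2 difference of the 6 genes ran from -0.66 to -0.47 with 1 array left out. Of the probe sets, Lin28a 1421749_at turned to 0.12 with array weights and 0.012 without both 8711 arrays, and ran from -0.65 to 0.15 with 1 array left out. Igf2bp3 1450687_at ran from -0.62 to 0.039 and Igf2bp3 1422611_s_at from -0.71 to 0.058 in the same way, turning without mutant 9216 and without mutant 9266. The cause was not tested. The counts of probe sets lower, in all and at an unadjusted p under 0.05, were added under these settings after the data were seen. Lower values were seen in 19 of 19 tested probe sets, in 18 with array weights, without any 1 mutant array or without both 8711 arrays, and in 15 of 15 with the stricter filter. Without a filter they were seen in 19 of 21. The number lower at an unadjusted p under 0.05 was 3, with 1 under median centring, without control 8711 or without control 9266, 5 after quantile normalization, 7 without mutant 8711 and 8 with array weights. Median centring moved the median of all probe sets to 0.06, against -0.05, and the share lower to 44.5%, against 54.5%, and all 19 stayed lower. With the mean of a gene's probe sets, list medians were -0.28 for let-7 processing, -0.28 for let-7 targets and -0.41 for temporal factors. With the title number as a replicate block, 0 probe sets were called and the lowest adjusted p of a timing gene was 0.765 (limma). What the title numbers stand for is not stated in the labels. Not every array correlated best with its own number, which gives no support for a pairing and does not show that there is none. Probe sets near the filter level, such as those of Lin28b, are limited by their dim signal.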
